A study of Mus musculus with 16 samples.

Results

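The genes examined were 9 factors that write, guide or read methylation of lysine 9 on histone H3: *Setdb1*, *Suv39h2*, *Ehmt1*, *Ehmt2*, *Trim28*, *Atf7ip*, *Cbx1*, *Cbx3* and *Cbx5*. They were taken by name, 9 of 21887 protein-coding genes, and each was given a window of its annotated bounds plus 10 kb on each side. Open chromatin had been mapped with ATAC-seq (a transposase cuts accessible DNA and tags it for sequencing) in male germ cells (gonocytes) from the testis of mice carrying the Mvh-Venus transgene, a reporter under the germ-cell gene *Mvh* (*Ddx4*). The 16 samples form 8 groups of 2: *Morc1* (+/-) mice, called het here, and *Morc1* (-/-) mice, called KO, each at E13.5 and E16.5 (days of embryonic development), on the day of birth (P0) and 3 days later (P3). All groups carry at least 1 disrupted *Morc1* allele and the reporter, and the series holds no wild-type group. The authors deposited 1 list of peak positions per group, with no height, score or value per sample.

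The P0 lists of the 2 genotypes were identical, and so were the P3 lists, which leaves 6 distinct lists and a comparison of genotypes for the embryonic stages alone. Which genotype the P0 and P3 lists were made from is unknown, so a comparison of a het or KO list with them is one of stage and may also be one of genotype. The lists hold 39559 (E13.5 KO) to 67258 (P0) peaks. All peaks of the E16.5 lists and all but at most 3 in each other list share 1 width, and the read depth behind them is unknown. With 1 list per group no difference below has a test or a spread between replicates: a peak is present in a list or it is not. A site open in fewer cells and a site less open in each cell cannot be told apart in such bulk data. Of 10 germ-cell markers, 4 to 6 had a peak within 1000 bp of a gene end in each list, among them *Ddx4*, *Dazl*, *Dnd1* and *Mael* in all 6, while *Nanos2*, *Tdrd1* and *Piwil2* had none. Of 17 markers of Sertoli, interstitial, endothelial and blood cells, 4 to 6 had one in each list: *Dhh* (Sertoli), *Cyp11a1* (interstitial) and *Tek* (endothelial) in all 6, *Wt1* and *Tcf21* in 5 and *Acta2* in 2. *Sox9*, *Amh*, *Star*, *Pecam1* and *Ptprc* were among the 11 with none in any list. These counts do not separate germ cells from other testis cells, and the part of other cells in the results was not tested.

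Methylated H3K9 marks heterochromatin and silenced transposons. SETDB1 trimethylates this residue at sites to which TRIM28 is brought by zinc finger proteins, and ATF7IP is a partner that stabilises SETDB1. SUV39H2 trimethylates H3K9 chiefly in pericentromeric heterochromatin, and the paired enzymes EHMT1 (GLP) and EHMT2 (G9a) add the lower methylation states in euchromatin. The products of *Cbx1*, *Cbx3* and *Cbx5* are the HP1 proteins beta, gamma and alpha, which bind the methylated residue. In fetal male germ cells this machinery acts on transposons while DNA methylation is being erased and laid down again, and MORC1 takes part in transposon silencing in the same cells.

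The 9 windows held 21 peaks in the E13.5 het list, 23 in E13.5 KO, 19 in E16.5 het, 20 in E16.5 KO, 16 at P0 and 13 at P3. Per 100 kb of window this was 3.76, 4.12, 3.40, 3.58, 2.86 and 2.33 peaks. The windows of all protein-coding genes held 2.55, 2.56, 2.59, 2.72, 2.86 and 2.29 peaks per 100 kb. The 9 member windows were thus denser than the average window in the 4 embryonic lists and level with it at P0 and P3. Much of the fall lay at *Atf7ip*: without it, the other 8 windows held 14, 17, 16, 16, 14 and 12 peaks. The *Atf7ip* window makes up 112.1 of the 558.5 kb but held 2 of the 16 peaks at P0 and 1 of the 13 at P3. The level at P0 and P3 is therefore that of the 9 windows. The other 8 stayed denser than the average window in these 2 lists. *Setdb1* and *Suv39h2* had the same number of peaks in all 6 lists, as did 19.8% of the protein-coding windows with any peak. The P0 list, the longest of the 6, did not hold the most peaks in these windows.

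**Figure D1:**
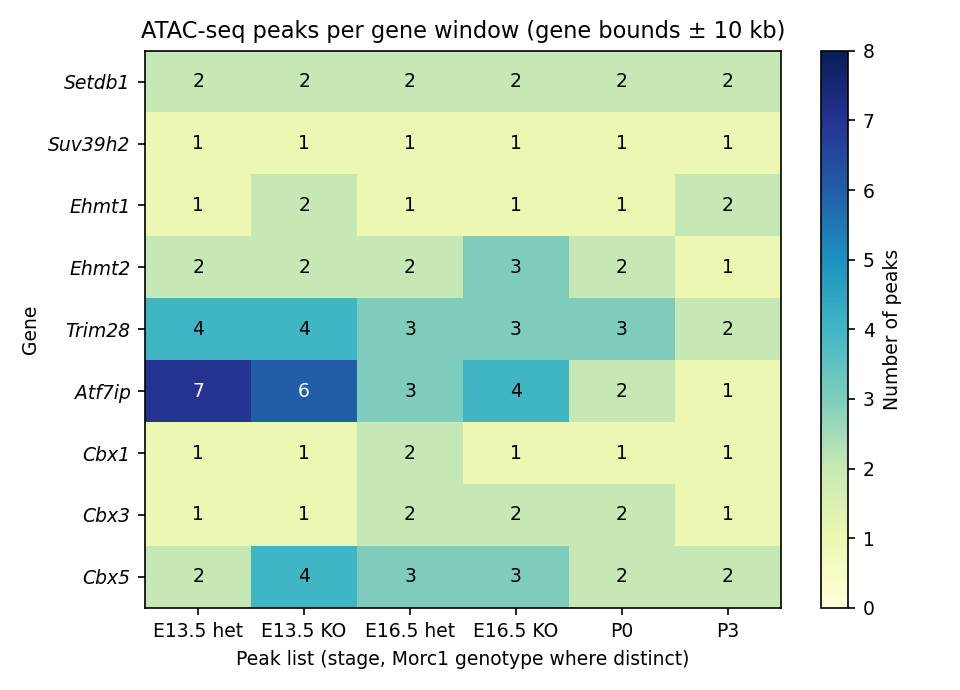
Number of ATAC-seq peaks (colour and printed number) in the window of each gene, its bounds plus 10 kb on each side, in the 6 distinct lists. *Setdb1* and *Suv39h2* hold the same number in all 6 lists, and *Atf7ip* goes from 7 and 6 peaks at E13.5 to 1 at P3.

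Peaks that overlapped across lists were joined into 32 regions. Of these, 10 were present in all 6 lists and 5 in a single list. The 12 regions within 1000 bp of an annotated start of a member included 7 of the 10 constant ones. The other 3 constant regions lay in the flanks of *Setdb1*, *Ehmt2* and *Trim28*, each within 1000 bp of a neighbour's start. These neighbours were *Anxa9*, *Cers2* and *LOC115489748* for *Setdb1*, *Zbtb12* for *Ehmt2* and *Chmp2a* for *Trim28*. Away from the members' own starts there were 20 regions, of which 9 lay inside a member's bounds. The gene table gives outer bounds only, so exons and introns were not told apart.

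The writers were examined first. *Setdb1* (gene ID 84505, chromosome 3, 95323525 to 95357202, minus strand) had 2 peaks in every list. One was centred 26 to 63 bp upstream of its start. The other lay at the neighbouring *Anxa9*, *Cers2* and *LOC115489748*, which all overlap it. The start peak was centred at -26 bp in both E13.5 lists, at -37 and -27 bp in the E16.5 het and KO lists, at -63 bp at P0 and at -36 bp at P3 (negative values are upstream). The 6 positions span 37 bp. The start-site peak covered all 250 bases upstream of the start in every list. This promoter is shown as the example of a start open throughout, in RefSeq GRCm38.p6, read 5′ to 3′ on the gene's strand, with matches to the searched motifs in capitals (here the NFY motif CCAAT and the SP/KLF motif GGGCGG, on either strand).
Setdb1 (chr3:95357203-95357452, minus strand): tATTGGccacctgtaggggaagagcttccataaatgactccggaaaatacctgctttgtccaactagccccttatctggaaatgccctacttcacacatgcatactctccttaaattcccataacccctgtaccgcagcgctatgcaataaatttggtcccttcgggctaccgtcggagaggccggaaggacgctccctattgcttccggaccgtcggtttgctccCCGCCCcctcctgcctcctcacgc

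*Suv39h2* (chromosome 2, 3455815 to 3474986, minus strand) had 1 peak in every list and no other in its window. Its centre lay downstream of the start, at 357 bp (E13.5 het), 352 bp (E13.5 KO), 365 bp (E16.5 het), 344 bp (E16.5 KO), 334 bp (P0) and 375 bp (P3). The peak covered none of the 250 bases upstream of the start in any list. *Ehmt1* (chromosome 2, 24790769 to 24919643, minus strand), which encodes the partner enzyme of EHMT2, had a start peak in all 6 lists, centred between -26 bp (E16.5 KO) and 50 bp (E13.5 KO). Its only other region, 69.5 kb into the gene, was present in the E13.5 KO and P3 lists and in no other list.

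*Ehmt2* (chromosome 17, 34898463 to 34914073, plus strand) differed from the other 8 genes in having no peak within 1000 bp of its start in 5 of the 6 lists. The exception was the E16.5 het list, with a peak at 34898654 to 34899154, centred 430 bp downstream of the first start and over a further annotated start at 34898970. Among all 17492 protein-coding genes with an annotated start, 33.6% had a start peak in no list and 2.93% in exactly 1. The nearest peak in the other 5 lists lay 4097 to 4154 bp upstream, at the start of *Zbtb12*. A peak 13.7 kb into *Ehmt2* was present in both E13.5 lists and in E16.5 KO, and absent from E16.5 het, P0 and P3. Another region, just past the gene at the start of *Slc44a4*, was present in E16.5 KO and at P0. The *Ehmt2* promoter is shown because none of its 250 bases was under a peak in any list, as was also so at *Suv39h2*. It holds 2 matches of the SP/KLF motif and 2 of the E-box CACGTG (capitals).
Ehmt2 (chr17:34898224-34898473, plus strand): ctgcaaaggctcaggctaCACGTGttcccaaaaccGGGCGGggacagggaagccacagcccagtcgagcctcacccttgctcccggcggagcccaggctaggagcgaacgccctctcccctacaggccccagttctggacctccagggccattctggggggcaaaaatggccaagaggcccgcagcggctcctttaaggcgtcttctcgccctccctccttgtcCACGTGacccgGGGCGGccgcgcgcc

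The 2 partners of SETDB1 were next. *Trim28* (chromosome 7, 13024152 to 13031032, plus strand), whose product is the corepressor that links KRAB zinc finger proteins to SETDB1, had the most fixed start peak of the 9 genes: its centre lay between 23 and 39 bp downstream of the start, a span of 16 bp over 6 lists. The annotated gene *Gm31649* overlaps this peak. The window held 4 peaks in each E13.5 list, 3 in each E16.5 list, 3 at P0 and 2 at P3. The peak lost after E13.5 lay 9.7 kb upstream of the start (13014214 to 13014758 over both lists) and was present in both genotypes at E13.5 and in no later list. The peak missing at P3 was at the start of the neighbour *Ube2m*. No region in this window differed between genotypes.

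*Atf7ip* (chromosome 6, 136518789 to 136610850, plus strand) had the most peaks of the 9 genes in both E13.5 lists and in E16.5 KO, and the largest change in number between E13.5 and P3. At P0 *Trim28* had more (3 peaks), and at E16.5 het *Trim28* and *Cbx5* had as many. The window held 7 peaks in E13.5 het, 6 in E13.5 KO, 3 in E16.5 het, 4 in E16.5 KO, 2 at P0 and 1 at P3. The start peak was the only one found in all 6 lists, centred between -51 bp (E16.5 het) and 54 bp (P3). Of the other regions, 6 lay inside the gene. Those centred 13.9, 24.5 and 26.8 kb from the start were present in both E13.5 lists and in none of the 4 later lists. The regions at 35.1 kb and, past the gene's end, at 102.0 kb were present in all 4 embryonic lists and absent at P0 and P3. The former overlaps *LOC108169175*, an annotated long non-coding RNA, and the latter lies in the neighbour *Plbd1*.

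**Figure D2:**
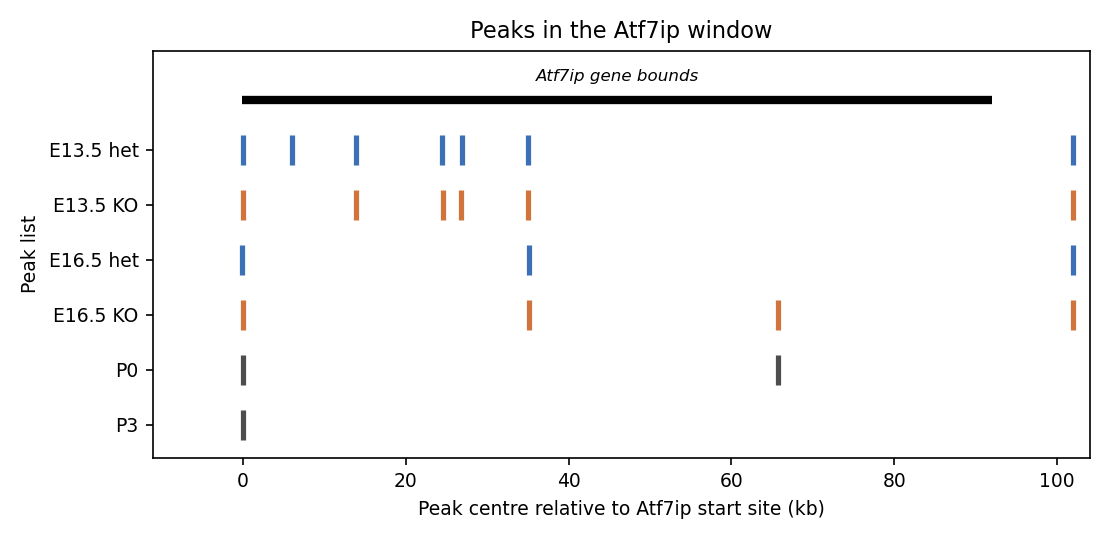
Centres of the peaks in the *Atf7ip* window (vertical ticks) by distance from its start site in kb, 1 row per list, with the gene bounds as a black bar. The ticks at 13.9, 24.5 and 26.8 kb are in both E13.5 rows only, those at 35.1 and 102.0 kb end after E16.5, and the start peak alone is left at P3.

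Both genotypes lost peaks in this window between E13.5 and E16.5, by 4 in het and by 2 in KO. Of all 21887 protein-coding windows, 3.30% lost 2 or more in both genotypes and 3.77% gained 2 or more in both. Windows with 3 or more peaks found in both E13.5 lists and in no later list made up 1.44%, and those with at least 5 fewer peaks at P3 than in either E13.5 list 0.439%. The *Atf7ip* window is longer than most (its gene spans 92062 bp, and the median protein-coding window is 37.2 kb), and no share was adjusted for length. Away from the start, 2 *Atf7ip* regions differed between genotypes: one at 6.1 kb was present in E13.5 het only, and one at 65.7 kb in E16.5 KO and at P0. The promoter is shown because it stayed under a peak while the peaks inside the gene were lost: 250, 199, 250, 227, 231 and 196 of the bases below were covered in E13.5 het, E13.5 KO, E16.5 het, E16.5 KO, P0 and P3. Capitals mark the NFY and SP/KLF motifs on either strand.
Atf7ip (chr6:136518601-136518850, plus strand): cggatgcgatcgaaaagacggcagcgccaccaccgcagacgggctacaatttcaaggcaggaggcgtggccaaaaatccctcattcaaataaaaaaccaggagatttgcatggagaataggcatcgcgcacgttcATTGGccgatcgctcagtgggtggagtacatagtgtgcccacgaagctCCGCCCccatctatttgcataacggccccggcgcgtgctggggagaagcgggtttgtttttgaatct

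**Figure D3:**
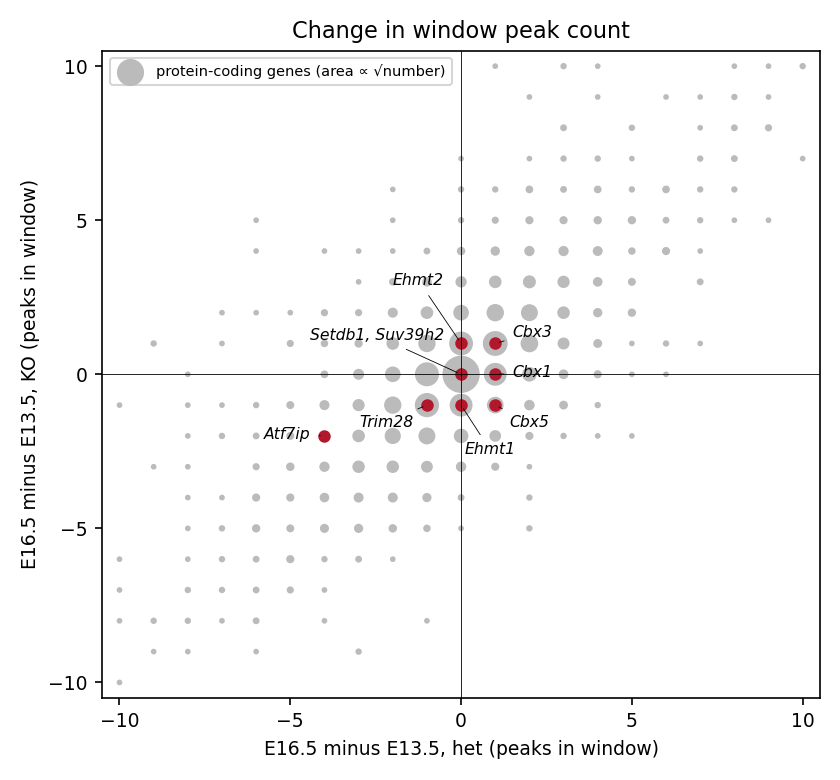
Difference in the number of peaks per window between E16.5 and E13.5 in het cells (horizontal) and KO cells (vertical). Grey circles stand for all protein-coding genes at that pair of values (area in proportion to the square root of their number, 78 genes beyond the axes not drawn) and red points for the 9 genes. *Atf7ip* lies at -4 and -2, and the other 8 genes lie within 1 peak of 0 on both axes.

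The HP1 genes differed among themselves. *Cbx1* (chromosome 11, 96788680 to 96808982, plus strand) had a start peak in all 6 lists, centred 76 bp (P3) to 146 bp (E16.5 het) downstream of the start. Its only other peak, 4130 bp upstream, was present in E16.5 het only. At *Cbx3* and *Cbx5*, by contrast, every list had a start peak, but its position differed between E13.5 and all later stages.

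At *Cbx3* (chromosome 6, 51470154 to 51483704, plus strand) the start peak was centred at -82 bp in E13.5 het and -68 bp in E13.5 KO. It was centred at -621 bp in E16.5 het, -638 bp in E16.5 KO, -708 bp at P0 and -643 bp at P3. The E13.5 peaks (51470284 to 51470784 in het) and the later peaks (51469745 to 51470245 in E16.5 het) shared no base, and the smallest distance between them was 38 bp. The later position lies over the start of *Hnrnpa2b1*, the divergent neighbour, which encodes an RNA-binding protein and starts 722 bp upstream on the other strand. Measured from that start, the later peaks were centred 14 to 101 bp upstream. The annotated bounds of *Cbx3* begin at 51470154, upstream of the start used here (51470616). That outer base of *Cbx3* lay under the peak in every later list and in neither E13.5 list, so the later peaks also lay over the edge of *Cbx3*. In human cells this pair of promoters is known as a ubiquitous chromatin opening element, used to protect transgenes from silencing.

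At *Cbx5* (chromosome 15, 103191546 to 103239904, minus strand) the start peak was centred 297 bp downstream of the start in E13.5 het and 242 bp downstream in E13.5 KO. It was centred at -344 bp in E16.5 het, -375 bp in E16.5 KO, -359 bp at P0 and -348 bp at P3. Again the E13.5 and later peaks shared no base, with a smallest distance of 85 bp. The later peaks reached over the start of *Hnrnpa1*, another divergent gene for an RNA-binding protein, 545 bp upstream. They lay wholly within the annotated bounds of *Hnrnpa1*, which begin 91 bp upstream of the *Cbx5* start. A second annotated *Cbx5* start, 24.5 kb into the gene, had a peak in all 6 lists.

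**Figure D4:**
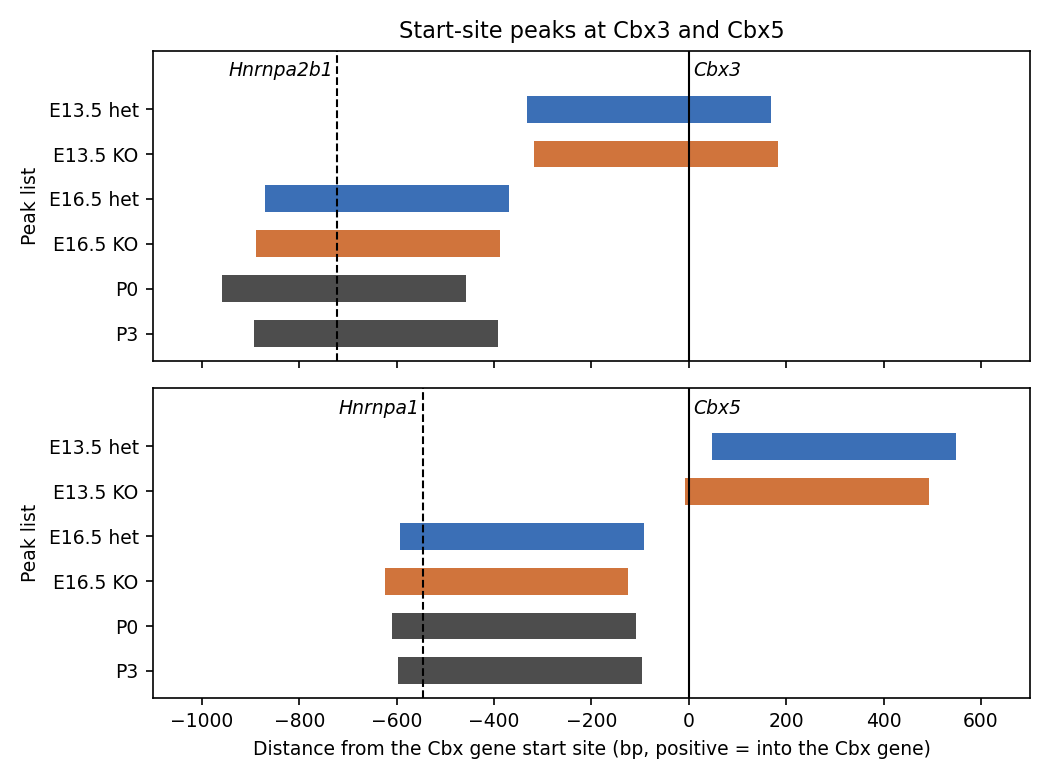
Extent of the start-site peak (bars) in each list at *Cbx3* (top) and *Cbx5* (bottom), by distance in bp from the start of the *Cbx* gene (solid line); the dashed line is the start of the divergent neighbour. In both panels the 2 E13.5 bars lie towards the *Cbx* gene and the 4 later bars towards the neighbour, with no overlap.

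The 2 promoters are shown with the bases that these peaks covered. Of the 250 *Cbx3* bases below, 250 were under the peak in both E13.5 lists and 0 in the 4 later lists. Of the *Cbx5* bases, 0 and 8 were covered in E13.5 het and KO, and 157, 126, 142 and 153 in E16.5 het, E16.5 KO, P0 and P3. Relative to each gene's own start, coverage of the upstream bases therefore changed in opposite directions at the 2 genes, while relative to the neighbour's start the peak moved closer at both. Capitals mark the SP/KLF motif in *Cbx3*, and the SP/KLF, E-box and NFY motifs in *Cbx5*, on either strand.
Cbx3 (chr6:51470366-51470615, plus strand): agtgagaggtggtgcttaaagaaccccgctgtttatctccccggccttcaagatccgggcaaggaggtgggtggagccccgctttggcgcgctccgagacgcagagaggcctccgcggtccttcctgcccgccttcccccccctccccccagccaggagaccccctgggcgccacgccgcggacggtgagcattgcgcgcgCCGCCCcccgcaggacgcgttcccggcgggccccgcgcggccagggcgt
Cbx5 (chr15:103239853-103240102, minus strand): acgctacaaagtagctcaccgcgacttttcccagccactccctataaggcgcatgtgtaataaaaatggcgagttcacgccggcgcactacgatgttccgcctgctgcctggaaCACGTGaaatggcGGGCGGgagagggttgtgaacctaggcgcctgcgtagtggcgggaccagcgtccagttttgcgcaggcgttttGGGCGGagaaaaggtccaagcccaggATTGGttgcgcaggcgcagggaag

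The shift of 539 to 640 bp at *Cbx3* and 586 to 672 bp at *Cbx5* was set beside the variation elsewhere. Between genotypes at E13.5 the centres differed by 14 bp at *Cbx3* and 55 bp at *Cbx5*, and the 4 later centres spanned 87 and 31 bp. The other 6 members with a start peak in all lists had centres spanning 16 to 105 bp over the 6 lists. Over all protein-coding genes the median distance between the start peaks of 2 lists was 19 bp for E13.5 het against KO, and 33 bp (het) and 30 bp (KO) for E13.5 against E16.5. Of the 9361 genes with a start peak in all 6 lists, 28 (0.299%) had E13.5 start peaks that shared no base with any of the 4 later ones, in either genotype. In 13 of these (0.139%) all later peaks lay upstream of both E13.5 peaks, as at *Cbx3* and *Cbx5*. This comparison was chosen after the positions at the 2 genes had been seen. It leaves out genes whose peak lay beyond 1000 bp from the start in any list, such as *Kmt5b* (below). The shares therefore miss longer shifts and may be too low.

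Of the 1215 genes with a divergent protein-coding start within 1000 bp upstream and a start peak in all lists, 4 (0.329%) had E13.5 peaks apart from all later peaks. These 4 were *Cbx3*, *Cbx5* and their own neighbours *Hnrnpa2b1* and *Hnrnpa1*, so they are 2 pairs with the same peaks counted from both starts. The share was near the 0.299% over all genes, and divergent genes too were set apart after these positions had been seen. *Cbx3* and *Cbx5* were the 2 (0.165%) whose later peaks all lay upstream. A move upstream from one start of a pair is a move downstream from the other, so both genes of a pair cannot be counted there. In every list the centres of neighbouring peaks were at least 1000 bp apart, so no list could hold a peak at both positions of *Cbx3* or of *Cbx5*. The lists thus show which of 2 positions carried the peak, and not whether the other was closed.

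**Figure D5:**
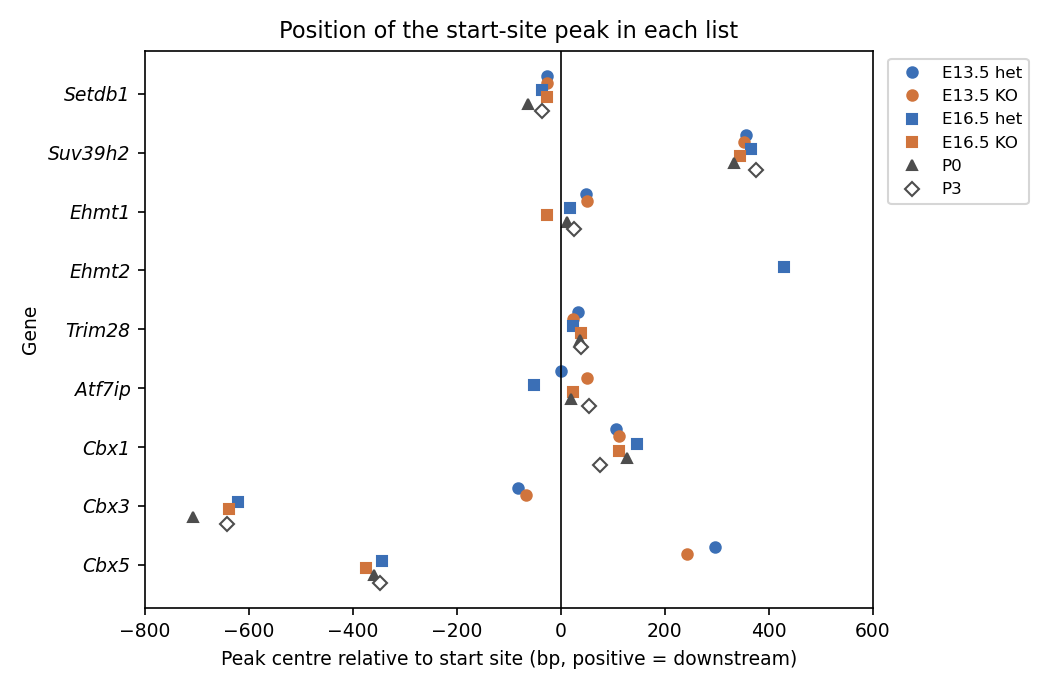
Centre of the start-site peak of each gene relative to its start site (bp, positive is downstream) in each list; blue is het, orange is KO, circles are E13.5, squares E16.5, and grey and white symbols P0 and P3. The 6 symbols of a gene lie within 105 bp of one another except at *Cbx3* and *Cbx5*, where the circles stand apart, and *Ehmt2* has a single symbol.

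Start peaks were then counted by list. A peak within 1000 bp of the most upstream start was present at 8 of the 9 genes in E13.5 het and E13.5 KO, where 59.1% and 59.4% of protein-coding genes had one. It was present at 9 of 9 in E16.5 het (60.0% of all genes) and 8 of 9 in E16.5 KO (60.8%), at P0 (62.4%) and at P3 (58.6%). All 6 lists had one at 8 of 9 members and at 53.5% of all genes. The 9 promoters (250 bases before to 50 after the start) held 15 (*Setdb1*) to 34 (*Ehmt1* and *Cbx3*) CpG dinucleotides, each above the median of 13 over all protein-coding promoters. Over all genes this number was 22 (median) where all 6 lists had a start peak and 2 where none had, and *Ehmt2*, with 28, was above the former value. The SP/KLF motif GGGCGG was found on either strand in all 9 promoters and in 46.3% of all 17492. This share and those of the other motifs cover all promoters and were not matched for CpG number or base content. The NFY motif was found in 3 of 9 (39.2% of all) and the E-box in 2 (7.91%). *Suv39h2* was the only member with the cyclic AMP response element TGACGTCA (2.33% of all) or the YY1 motif (0.972%). The NRF1 motif, the ETS motif CCGGAAGT and the BANP motif were found in none of the 9 (1.33%, 5.28% and 0.726% of all).

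The genotypes were compared at the 2 embryonic stages. At E13.5, 20 of the 21 het peaks in the member windows had a counterpart in the KO list. The het-only peak was the *Atf7ip* region at 6.1 kb, 1 of 21 (4.76%, 95% Wilson interval 0.846 to 22.7), beside 17.1% het-only peaks over all protein-coding windows. The 3 KO-only peaks of 23 (13.0%, interval 4.54 to 32.1, beside 16.7% over all windows) were the *Ehmt1* region at 69.5 kb and 2 *Cbx5* regions, 37.3 and 56.6 kb from its start. None of these 4 peaks was at a start site.

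At E16.5, 2 of 19 het peaks were het-only (10.5%, interval 2.94 to 31.4, beside 14.8% over all windows): the *Ehmt2* start peak and the *Cbx1* peak 4130 bp upstream. The 3 KO-only peaks of 20 (15.0%, interval 5.24 to 36.0, beside 19.4%) were the *Ehmt2* regions at 13.7 and 15.9 kb and the *Atf7ip* region at 65.7 kb. No region differed between genotypes in the same direction at both stages. The intervals cover counting error over peaks only, and each of the 4 holds the share over all windows. The count of peaks per window was higher in KO at 2 members and lower at 1 in each stage. Over all windows it was higher in 14.5% and lower in 13.8% at E13.5, and higher in 17.9% and lower in 12.0% at E16.5. At E13.5 the start peaks of 0 of the 9 genes differed by genotype, beside 1.18% of all genes with a het-only and 1.50% with a KO-only start peak. At E16.5 that of *Ehmt2* did (het only, 1 of 9), beside 1.59% of all genes in het only and 2.42% in KO only. This difference depended on the definition of a start peak. Within 100 bp of the start *Ehmt2* had one in neither E16.5 list. There, 6 members had one in each list, but *Cbx5* in het only and *Suv39h2* in KO only. When either outer end of the gene counted, 9 members had one in each list. The *Ehmt2* peak then counted in KO (34914118 to 34914618) lay just past the gene and not at its start.

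The stages were compared in the same way. Of the E13.5 peaks in member windows, 13 of 21 (61.9%, interval 40.9 to 79.2) were found at E16.5 in het and 14 of 23 (60.9%, interval 40.8 to 77.8) in KO, beside 62.7% and 65.5% over all windows. Without *Atf7ip* the shares were 71.4% and 64.7%. P3 held 10 of the 21 E13.5 het peaks (47.6%, interval 28.3 to 67.6, beside 61.4%) and 11 of the 23 KO peaks (47.8%, interval 29.2 to 67.0, beside 61.6%). Of the 16 P0 peaks, 14 (87.5%, interval 64.0 to 96.5, beside 71.7%) were in the E16.5 het list and 16 of 16 in the E16.5 KO list (interval 80.6 to 100, beside 74.5%). In the other direction, P0 held 14 of the 19 E16.5 het peaks (73.7%, interval 51.2 to 88.2, beside 79.2%) and 16 of the 20 E16.5 KO peaks (80.0%, interval 58.4 to 91.9, beside 77.9%). At P3, 12 of 13 peaks were those of P0 (92.3%, interval 66.7 to 98.6, beside 84.2%), the remaining one being the *Ehmt1* region at 69.5 kb. Of these shares, the interval of P0 peaks in E16.5 KO alone did not hold that of all windows. It is picked from all the intervals of this paragraph, which cover counting error over peaks only and are no test. Of the 16 P0 peaks, 9 lay at member starts, and the share over all windows was not matched for this. Among regions absent from both E13.5 lists and from P3, those present in both genotypes at E16.5 were the *Cbx3* region 18.3 kb downstream of its start, which the E16.5 het, E16.5 KO and P0 lists share, and a *Cbx5* region at 57.4 kb, present at E16.5 only. The others were in 1 genotype at E16.5: the *Ehmt2* region at 15.9 kb and the *Atf7ip* region at 65.7 kb (E16.5 KO and P0), and the *Ehmt2* start peak and the *Cbx1* peak 4130 bp upstream (E16.5 het).

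The other genes of H3K9 methylation were read at their starts from a list that also holds the 9 members. Of 43 listed genes, 40 were matched in the promoter table used for start sites (*Cdyl2*, *Kdm3b* and *Kdm4b* were not), and 31 of these were not members. Of the 31, 27 had a start peak in all 6 lists, 3 in none and 1 in some, where 53.5% of all protein-coding genes had one in all 6 and 33.6% in none. The constant ones included the writers *Suv39h1* and *Setdb2*, the genes of the HUSH silencing complex *Mphosph8*, *Tasor* and *Pphln1*, the SETDB1 cofactor paralogue *Atf7ip2*, and the demethylase genes *Kdm1a*, *Kdm3a* and *Kdm4a*. *Cdyl*, *Morc2b* and *Kdm4c* had a peak at their most upstream start in no list. When any annotated start of a gene counted, 38 to 40 of the 40 genes had a start peak in each list. The share over all genes was not counted under this wider rule, so these numbers have nothing to be set beside. *Kmt5b*, whose product methylates lysine 20 of histone H4, had one at 410 bp in E13.5 het and 412 bp in E13.5 KO. In the later lists its nearest peak lay 1282 to 1448 bp downstream, outside the limit of 1000 bp, so its E13.5 and later peaks were also at different positions. The start peaks of 0 of these 31 genes differed between genotypes, which is near the share over all genes (1.18% het only and 1.50% KO only at E13.5, 1.59% and 2.42% at E16.5).

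By the number of peaks in the window over the 6 lists, the gene most like *Atf7ip* was *Tspan14*, with 7, 6, 3, 5, 2 and 1 peaks in the order E13.5 het, E13.5 KO, E16.5 het, E16.5 KO, P0 and P3, a summed absolute difference of 1. *Rasgrf2* followed with a difference of 2. For *Trim28*, 5 genes had the same 6 numbers, the first by alphabet being *Catsperd*, *Cmip* and *Gng8*. For *Cbx5*, 22 genes were at a difference of 1, so its counts were not distinctive.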

How the data were processed

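Peak lists were read as the authors deposited them, 1 per stage and genotype for 16 samples. Each gives chromosome, start and end of every peak and no other value, so no normalized unit was used. Per the submitters' processing notes, the build was mm10 and the tools were bcl2fastq 2.20, cutadapt 1.18, Bowtie2 2.3.4.1, deepTools 3.5.0 and HOMER 4.10. The peak caller, its threshold and any pooling of the 2 samples per group are not given in the sources used here. Depth is unknown, so part of a difference in peak number between lists cannot be told apart from depth.

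The members, lists and comparisons were chosen with earlier results of these data known. Gene bounds, starts and promoters came from RefSeq tables of GRCm38.p6, and all 9 members matched. The most upstream promoter start of a gene was used, and a start peak is the nearest peak overlapping 1000 bp on either side. Gene bounds can reach further upstream than this start, as at *Cbx3* (51470154 against 51470616) and *Cbx1* (96788680 against 96789135). Peaks were shared when they had at least 1 bp in common. Positions are 1-based. Named were all members, the start peaks, regions that differed by stage or genotype, listed pathway genes whose start peak varied between lists, and genes of most similar counts. Further pathway and neighbouring genes, and *Cdyl*, *Morc2b* and *Kdm4c*, were named after their values were seen. Overlaps were computed in Python 3.11.15, checked against bedtools 2.31.1 in 4 comparisons (no count differed), and tested on simulated data with planted overlaps. Alternatives were other flanks, overlaps and start windows.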

Additional observations from a re-analysis of the deposited data

Results flagged for a closer look

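The count of peaks in the *Atf7ip* window differed between KO and het in opposite directions at the 2 embryonic stages. KO minus het was -1 at E13.5 (6 against 7 peaks) and 1 at E16.5 (4 against 3 peaks). Each difference rests on 1 peak in 1 list, and this change of direction was not tested.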

How the results depend on the processing

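No paired analysis was possible because the peak lists name no replicate, and leaving 1 out was not possible either. On recomputation, 131 values stayed within 1.5 times the reported count, or within the 95% interval of the reported share, and 4 moved. All 4 moved when the flanks of 10 kb were dropped, which leaves fewer bases to hold peaks: the windows then held 10 peaks in E16.5 het, 11 in E16.5 KO and 9 at P0, and the het-only peaks at E16.5 became 1. With flanks of 5 kb, a reciprocal overlap of 50%, peaks within 500 bp counted as shared, the middle base of a peak in the window, start windows of 500 or 100 bp, or either outer end as the start, none moved by that measure. Start windows of 100 bp left 6 or 7 of the 9 members with a start peak in each list, and 6 in each E16.5 list. With either outer end as the start both E16.5 lists had 9. Equal totals did not mean equal genes. At 100 bp *Cbx5* had a start peak in E16.5 het only and *Suv39h2* in E16.5 KO only. With either outer end, the *Ehmt2* peak counted in E16.5 KO lay just past the gene and not at its start. Some alternatives were chosen after seeing the data. Any annotated start gave 38 to 40 of the 40 pathway genes a start peak, with no share over all genes counted beside it. In the *Atf7ip* window with shorter flanks, 7 peaks in E13.5 het became 6, and 1 at P3 remained 1. Centres at least 200 bp apart, in place of no shared base, gave 2 members and 65 of 9361 genes (0.694%) with displaced start peaks. Depth, peak height and replicate spread are unknown, so a missing peak is not a measured absence of accessibility.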
